A study of Mus musculus with 4 samples.

Results

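The 9 genes described here are the AP-1 transcription factor genes Fos, Fosb, Fosl1, Fosl2, Jun, Junb and Jund, together with Atf3 and Maff. They were chosen by symbol, with earlier results of these data known. Each was read by 1 probe, a probe being 1 transcript cluster of the Clariom S Mouse array. They are 9 of 19505 gene symbols on the array, which holds 22206 probes. Expression was measured in total RNA of the whole heart of 4 male mice. Ctrl-MI mice (n = 2) had the genotype Tcf21iCre/Tomato, and TTg-MI mice (n = 2) had the genotype Tcf21iCre/Tomato/MGTH2A. Both groups thus carried Cre from Tcf21, a gene of cardiac fibroblasts, and the Tomato reporter, and only TTg-MI carried MGTH2A, known in the field as a construct for the cardiac factors Mef2c, Gata4, Tbx5 and Hand2. Myocardial infarction (MI) was made at 8 weeks of age by tying the left coronary artery, mice with an ejection fraction over 45% at 2 days were removed, and hearts were taken after 3 months. The Cre acts in cells that use Tcf21, whereas the RNA came from all cells of the heart. In such bulk RNA, fewer cells of a type and less RNA per cell cannot be told apart.

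AP-1 is a dimer of basic leucine zipper proteins. Jun proteins pair with each other or with Fos proteins, and the dimer binds short palindromic sites in DNA. Most of these genes are early-response genes, switched on within minutes of growth factor, stretch or stress signals through MAP kinases and serum response factor, while Jund is made more steadily. Atf3 is a stress-induced member of the same protein class that can pair with Jun and often represses its targets. Maff is a small Maf protein, which has a DNA-binding zipper but no activation domain. In the heart AP-1 is known for its part in hypertrophic, inflammatory and fibrotic responses.

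Values are deposited expression values taken as log2, with array medians of 6.55 to 6.62. All 9 genes lay above the lower quartile of every array (5.41 to 5.48), and Fos and Maff lay under the median on 3 of 4 arrays. The arrays of a group were not equally alike. Some atrial muscle genes were faint on the array of Ctrl-MI replicate 2, such as Myl4, an atrial myosin light chain chosen here after its values were seen, at 7.70 against 14.61 to 16.34 on the other arrays. Ctrl-MI replicate 1 was the highest array for 8 of the 9 genes and for 29.6% of all probes. Values with one of these arrays left out are given beside the results that they move. A fit that leaves a group with 1 array takes its spread from the other group. As a check of the labels, Tbx5 stood at 7.62 and 7.88 in Ctrl-MI and at 10.68 and 9.72 in TTg-MI, and Mef2c at 12.67 and 13.02 against 16.01 and 13.97. The other 2 factors overlapped between the groups, Gata4 at 13.39 and 13.74 against 14.07 and 13.38, and Hand2 at 9.09 and 8.24 against 9.94 and 8.93.

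The stretch before the start site is shown for the members whose promoters hold an ATF/CREB or Jun-type site, the kind of site that AP-1 and Atf proteins themselves bind. RefSeq promoters (build GRCm38.p6, reference sequence and not read from these mice) were found for 8 of the 9 genes, with 10 start sites in all, 3 of them for Maff. In the 250 bases before each start, 4 motifs were searched on both strands. These were TGACTCA, the AP-1 site, TGACGTCA, the full cyclic AMP response element, TGACGT, the shorter core that TGACGTCA contains, and TGACATCA, the variant known from the Jun promoter. The motifs were picked after the sequences had been seen. The runs below give the 120 bases before a start, with motif matches in capitals, for Jun at chr4:95052223-95052342 (minus strand), Fos at chr12:85473770-85473889 (plus), Atf3 at chr1:191183334-191183453 (minus), and Maff at chr15:79347400-79347519 and chr15:79348282-79348401 (both plus).
Jun: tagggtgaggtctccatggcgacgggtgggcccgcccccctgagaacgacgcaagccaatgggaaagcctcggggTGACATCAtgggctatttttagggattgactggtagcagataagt
Fos: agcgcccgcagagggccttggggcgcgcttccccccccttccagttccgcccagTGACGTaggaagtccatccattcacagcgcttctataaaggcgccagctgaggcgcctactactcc
Atf3: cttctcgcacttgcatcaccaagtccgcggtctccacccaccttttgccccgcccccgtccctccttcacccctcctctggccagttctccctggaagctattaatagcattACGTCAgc
Maff, first start shown: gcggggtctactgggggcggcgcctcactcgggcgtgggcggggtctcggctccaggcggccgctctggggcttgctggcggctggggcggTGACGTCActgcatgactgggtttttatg
Maff, next start shown: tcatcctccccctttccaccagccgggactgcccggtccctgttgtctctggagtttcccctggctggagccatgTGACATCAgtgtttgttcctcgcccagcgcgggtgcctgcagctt

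TGACGT was present before 3 of the 10 member starts, 1 each of Fos, Atf3 and Maff, and in 6.47% of all 32851 promoters. TGACATCA was present before 2 of the 10, 1 each of Jun and Maff, and in 2.93% of all promoters. At both genes it lay 45 to 38 bases before the start. TGACGTCA was present before 1 of the 10, a Maff start, and in 1.55% of all promoters. The TGACGT match of Maff lies within this same site. TGACTCA, present in 4.46%, matched no member. Fosb, Fosl2, Junb and Jund had no match in this window. A match describes the sequence and says nothing of binding in these hearts.

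Of the 9 genes, 8 had a lower mean in TTg-MI than in Ctrl-MI hearts, a direction seen for 47.7% of all probes. The median log2 difference of the 9 was -0.74, beside 0.011 for all probes. Atf3 had the largest difference in size, and the 3 Jun genes the most even ones. For 6 of the 9 the higher TTg-MI array was below the lower Ctrl-MI array, as it was for 18.7% of all probes. In limma, 4 of the 9 had an unadjusted p under 0.05, all lower (5.07% of all probes), and 0 of the 9 were higher at that p (3.18%). After Benjamini-Hochberg adjustment over all probes 0 of the 9 passed, while 1 probe of the array did (0.0045%), that of Bmp10. The smallest p that an exact permutation test allows for 1 gene, with 2 arrays against 2, is 1 in 3. Most of the median difference came with 1 array: without Ctrl-MI replicate 1 it was -0.25, with 6 of the 9 lower. The members lower at an unadjusted limma p under 0.05 numbered 4 without that array (3.77% of probes) and 7 without the other Ctrl-MI array (7.73%). They numbered 3 when TTg-MI replicate 1 was dropped (3.67%) and 3 when TTg-MI replicate 2 was (2.45%). Without Ctrl-MI replicate 2, 3 of the 9 also passed the adjustment over all probes, lower in TTg-MI, as 0.896% of probes did.

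**Figure D1:**
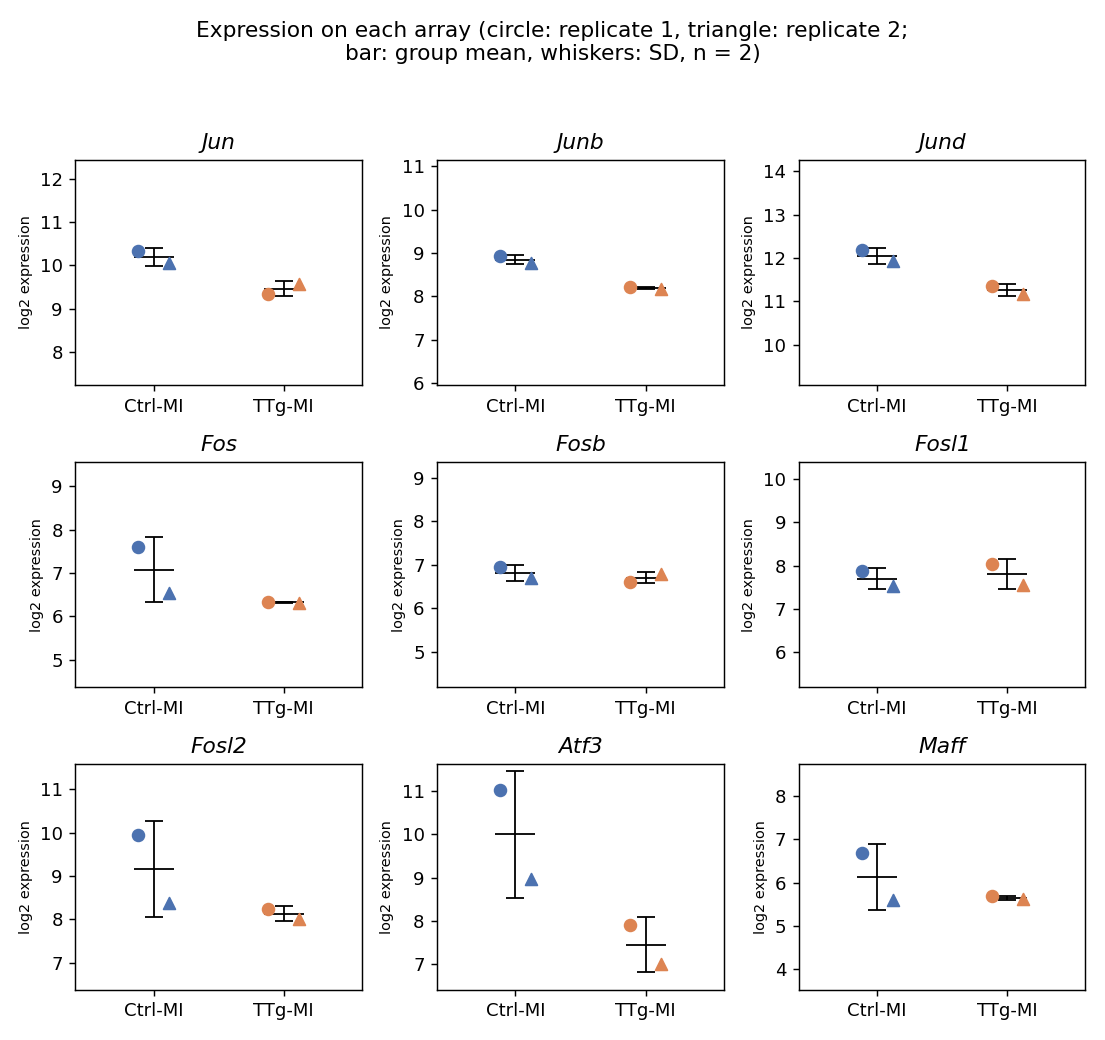
Log2 expression of each gene (vertical axes, all of equal span) on the Ctrl-MI and TTg-MI arrays, with circles for replicate 1, triangles for replicate 2, a bar for the group mean and whiskers for the SD (n = 2). The Jun genes separate the groups with close replicates, while Fos, Fosl2, Atf3 and Maff are high on Ctrl-MI replicate 1.

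The Jun genes encode the DNA-binding partners that every Fos protein needs. Jun, the founding member, stood at 10.34 and 10.05 in Ctrl-MI and at 9.34 and 9.58 in TTg-MI. Junb, which can restrain Jun, stood at 8.93 and 8.77 against 8.21 and 8.18. Jund, the steadily made member, stood at 12.18 and 11.92 against 11.36 and 11.16. For each of the 3 genes both TTg-MI hearts were below both Ctrl-MI hearts, and the gap between the nearest arrays of the groups (0.47 for Jun, 0.56 for Junb and 0.56 for Jund) exceeded the gap between replicates of either group, which was at most 0.29.

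The log2 difference of Jun was -0.74 (SE 0.18, 95% interval -1.20 to -0.28), which is 1.67-fold lower. That of Junb was -0.65 (SE 0.15, interval -1.04 to -0.27), and that of Jund was -0.79 (SE 0.18, interval -1.23 to -0.35). These differences were larger than the spread between replicates, with limma unadjusted p of 0.00831, 0.00657 and 0.00496, but each had an adjusted p of 0.546 over all probes. All 3 genes kept their direction when any single array was left out. Jun then ranged from -0.88 to -0.59, Junb from -0.73 to -0.57 and Jund from -0.92 to -0.66. Every such value of the 3 genes lay on the same side of 0, within the interval found with all arrays.

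The Fos genes, whose proteins bind DNA only with a partner such as Jun, did not behave alike. Fos stood at 7.61 and 6.55 in Ctrl-MI and at 6.33 and 6.32 in TTg-MI. Fosl2, also called Fra-2 and linked in the literature to fibrosis, stood at 9.94 and 8.38 against 8.25 and 8.02. For both genes Ctrl-MI replicate 1 was far above the other 3 arrays, and Ctrl-MI replicate 2 lay just above the TTg-MI arrays, by 0.21 for Fos and 0.13 for Fosl2. Fosb, the gene whose short form builds up under lasting stimulation, stood at 6.94 and 6.69 against 6.61 and 6.79. Fosl1, or Fra-1, stood at 7.87 and 7.54 against 8.05 and 7.56. The groups overlapped for Fosb and Fosl1.

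The difference of Fos was -0.75 (SE 0.35, interval -1.63 to 0.12; limma unadjusted p = 0.0782), no larger than the Ctrl-MI SD of 0.75. That of Fosl2 was -1.03 (SE 0.50, interval -2.26 to 0.21; limma unadjusted p = 0.0873), beside a Ctrl-MI SD of 1.10. Neither passed a threshold with all arrays. Leaving out Ctrl-MI replicate 1 gave differences of -0.22 and -0.25. With Ctrl-MI replicate 2 left out instead they were -1.28 and -1.81, with Ctrl-MI then read from replicate 1 alone. Fosb differed by -0.11 (SE 0.17, interval -0.54 to 0.32) and Fosl1 by 0.10 (SE 0.23, interval -0.47 to 0.68). These intervals leave room for either direction, and both genes turned sign when single arrays were left out, Fosb within -0.24 to 0.01 and Fosl1 within -0.14 to 0.35.

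Atf3, the stress-induced repressor, had the widest separation. It stood at 11.03 and 8.96 in Ctrl-MI and at 7.91 and 7.00 in TTg-MI. Both TTg-MI hearts were below both Ctrl-MI hearts by at least 1.05 log2 units, although the Ctrl-MI hearts themselves lay 2.07 apart. The difference was -2.54 (SE 0.69, interval -4.28 to -0.81), or 5.82-fold lower, and only 0.0675% of all probes had a more negative one. Its limma unadjusted p was 0.0121 and its adjusted p 0.546. The difference was -1.50 when Ctrl-MI replicate 1 was left out. It was -3.58 when Ctrl-MI replicate 2 was left out and Ctrl-MI was read from replicate 1 alone. It stayed lower in TTg-MI in each fit with 1 array left out.

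Maff stood at 6.67 and 5.59 in Ctrl-MI and at 5.68 and 5.61 in TTg-MI. Here a single heart, Ctrl-MI replicate 1, stood above the rest, and Ctrl-MI replicate 2 was the lowest array. The difference was -0.48 (SE 0.36, interval -1.37 to 0.41; limma unadjusted p = 0.229), and it was 0.06 with Ctrl-MI replicate 1 left out but -1.02 with the other Ctrl-MI heart left out. For this gene the sign thus depended on which Ctrl-MI heart was used.

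**Figure D2:**
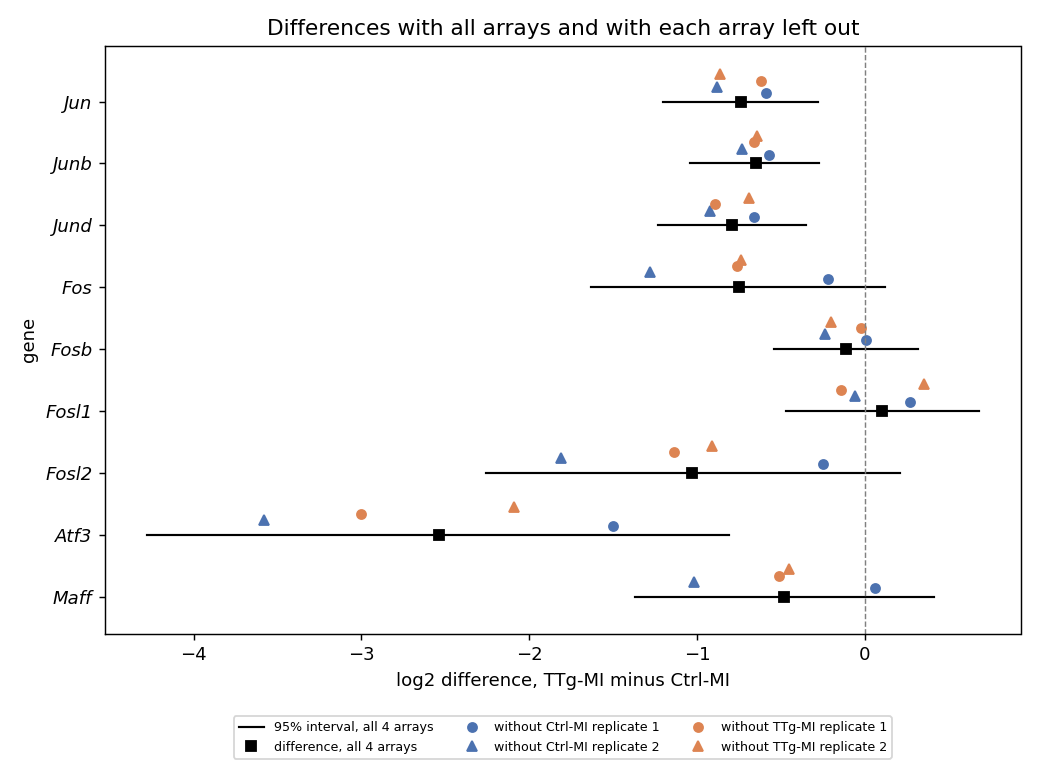
Log2 difference of each gene, TTg-MI minus Ctrl-MI (horizontal axis), with all 4 arrays (black squares, lines for the 95% interval from limma) and with each array left out (coloured symbols). The Jun genes stay between -0.92 and -0.57 in every such fit, whereas Fos, Fosl2, Atf3 and Maff spread with the Ctrl-MI array that is left out.

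The 9 genes differed in how far the Ctrl-MI hearts lay from each other. Ctrl-MI replicate 1 exceeded Ctrl-MI replicate 2 by 2.07 for Atf3, 1.56 for Fosl2, 1.08 for Maff and 1.06 for Fos. Gaps larger than these in the same direction were found for 0.126%, 0.414%, 1.17% and 1.23% of all probes. For Jun, Junb, Jund, Fosb and Fosl1 the gap was 0.16 to 0.34, exceeded by 16.1% to 32.5% of probes. Between the TTg-MI hearts the largest gaps were 0.91 for Atf3 and 0.49 for Fosl1, with replicate 1 above, and the others were at most 0.24 in size.

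Fibroblast and macrophage markers were also lower in TTg-MI, whereas the other marker lists, given further below, held genes of both directions. The summed level of 12 fibroblast markers, in log2, was 19.90 and 19.26 in Ctrl-MI and 18.97 and 18.47 in TTg-MI, and that of 11 macrophage markers was 15.14 and 13.81 against 13.25 and 12.23. Both sums thus ran from Ctrl-MI replicate 1 down to TTg-MI replicate 2. The same order was seen for Atf3, Fosl2, Fos, Junb and Jund, but not for Jun, Fosb, Fosl1 and Maff. For Fos (6.33 and 6.32) and Junb (8.21 and 8.18) the TTg-MI hearts were almost equal. The share of all probes in this order was not computed, so the order links no gene to these cells. All 12 fibroblast markers were lower on average in TTg-MI (median difference -1.28), and 10 had a limma unadjusted p under 0.05, led by Tcf21 (-1.37, SE 0.25) and the matrix gene Fbln1 (-2.21, SE 0.45). All 11 macrophage markers had a lower mean, with a median of -0.95, and 7 had such a p, with Mrc1, the mannose receptor, at -1.57 (SE 0.41) and Lyz2, lysozyme, at -1.98 (SE 0.59). Over all probes, 47.7% had a lower mean and 5.07% were lower at that p. None of either list lay under the lower quartile on every array. With all arrays, 0 markers of each list passed the adjustment over all probes. The counts at that p, the counts past the adjustment and the medians depended on single arrays. Dropping Ctrl-MI replicate 1 gave a median of -0.84 for fibroblast and -0.56 for macrophage markers. The medians were -1.70 and -1.51 when Ctrl-MI replicate 2 was dropped, and -0.77 and -0.91 when TTg-MI replicate 2 was. The part of these cells in the AP-1 values was not tested.

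The summed level of 10 cardiomyocyte markers was 22.62 and 22.76 in Ctrl-MI and 22.71 and 22.71 in TTg-MI, but 6 of the 10 lay within 1 log2 unit of the highest value on every array, so this sum could hardly vary. The summed level of 9 endothelial markers was 16.40 and 16.09 against 16.34 and 15.91. That of 7 T and B cell markers was 8.59 and 8.63 against 8.47 and 8.48. All 7 lay under the median of every array, so this sum says little of these cells. By p Cd3g (-0.33, SE 0.16) and Ms4a1 (-0.32, SE 0.16) led the T and B cell list. Of the 10 cardiomyocyte markers 1 was lower and 9 were higher on average, with a median of 0.07. Without Ctrl-MI replicate 1, 6 were lower and 4 higher. The lower one with all arrays, the slow myosin gene Myh7, differed by -1.46 (SE 0.24), and the calcium release channel Ryr2 by 0.89 (SE 0.32). Among the endothelial markers Pecam1 differed by -0.56 (SE 0.19) and Tie1 by 0.69 (SE 0.24). Of 8 smooth muscle and pericyte markers 3 were lower and 5 higher on average, with a median of 0.11. Their summed level, 15.08 and 16.00 against 16.35 and 16.46, weights the bright probes. By p they were led by the smooth muscle actin Acta2 (1.26, SE 0.26) and Abcc9 (1.19, SE 0.50), while Tagln differed by -0.79 (SE 0.51), Pdgfrb by -0.34 (SE 0.23) and Myh11 by -0.14 (SE 0.16). These last 3 are named as the lower ones, after their values were seen. Neutrophil markers stood at 8.56 and 8.40 against 8.45 and 8.68, with S100a8 and Ngp under the lower quartile on every array. Each neutrophil marker lay under the median on at least 3 of 4 arrays, so this sum too says little of these cells. Their list was led by p by Retnlg (0.45, SE 0.24) and S100a8 (-0.35, SE 0.21). Of 8 atrial markers 6 were higher on average, Bmp10 most (6.75, SE 0.22), then Stard10 by p (1.35, SE 0.18), with a median of 2.05. That count rested on Ctrl-MI replicate 2, the array faint for atrial genes: with it dropped 3 of the 8 were higher and 5 lower, with a median of -0.25. With Ctrl-MI replicate 1 dropped the median was 3.74. The endothelial median, -0.03 with all arrays, was between -0.37 and 0.08 as single arrays were dropped. The atrial sums were 20.04 and 19.90 against 20.07 and 18.97, set largely by Nppa, which was near the top of the measured range.

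**Figure D3:**
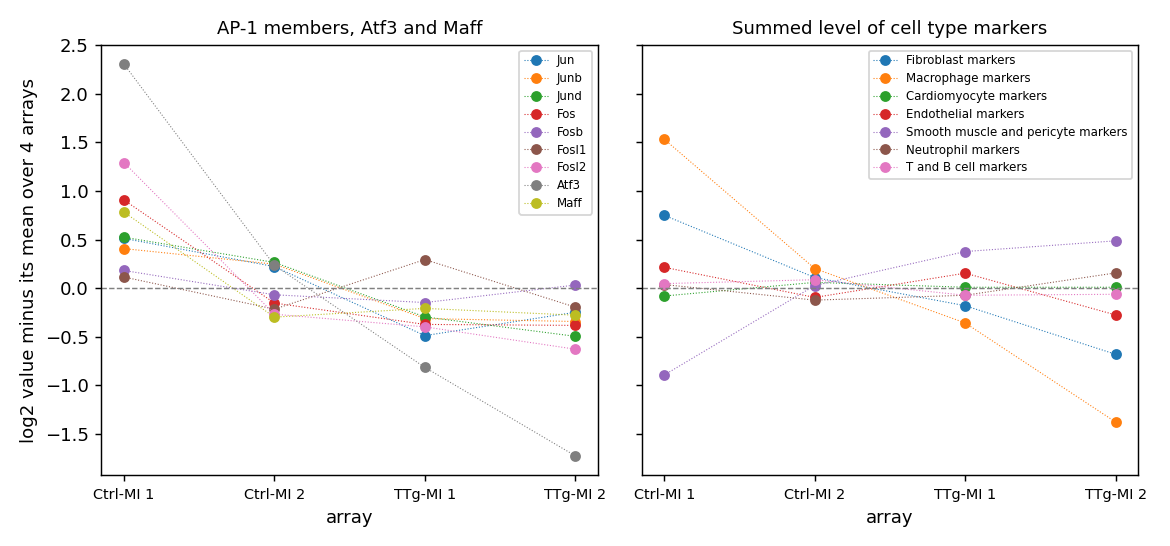
Left, log2 expression of the 9 genes on each array minus the gene's mean over the 4 arrays, and right, the same for the log2 summed level of cell type markers. Dotted lines only link values of one gene or list. Of the 9 genes 8 peak on Ctrl-MI replicate 1, as 29.6% of all probes do, and Atf3, Fosl2, Fos and Maff stand out there by the most. The macrophage, fibroblast and endothelial sums peak on that array too.

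Other early-response genes mostly had the same direction. Of 22 measured, outside the 9, 20 were lower on average in TTg-MI, beside 47.7% of all probes. Their median log2 difference was -0.65, beside 0.011 for all probes. In 12 of the 22 the groups did not overlap, with TTg-MI below, as for 18.7% of all probes. With all arrays, a limma unadjusted p under 0.05 was found for 7, all lower (5.07% of all probes), while 0 passed the adjustment. Both counts changed as single arrays were left out. By p the list was led by Klf10, a TGF-beta induced repressor (8.44 and 8.05 against 7.64 and 7.34; difference -0.76, SE 0.21), and Nr4a1, an orphan nuclear receptor (10.72 and 9.34 against 8.04 and 8.74; -1.64, SE 0.49). Both were lower in each TTg-MI heart than in either Ctrl-MI heart. The median moved with the Ctrl-MI array left out, to -0.31 without replicate 1 and to -1.04 without replicate 2.

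Genes of related leucine zipper proteins, some of which pair with AP-1 or with Maff, were more mixed. Of 13 other Atf, Batf, Creb and C/EBP genes and Jdp2, 8 had a lower mean, the median was -0.18, and 2 had a limma unadjusted p under 0.05, both lower. These were Atf4, the factor of the integrated stress response (11.46 and 10.92 against 10.17 and 10.45; -0.88, SE 0.23), and Jdp2, a Jun partner that represses (7.76 and 7.01 against 6.69 and 6.57; -0.76, SE 0.27). Both separated the groups on all arrays. Of 11 Maf and cap'n'collar genes 7 had a lower mean, with a median of -0.13. Mafk, another small Maf (7.92 and 7.45 against 7.04 and 6.51; -0.91, SE 0.26), was the single gene with such a p, and Nfe2l2, the oxidative stress factor that small Mafs pair with, differed by -0.44 (SE 0.19). Beside these counts, 47.7% of all probes had a lower mean and 5.07% were lower at that p. With all arrays, no gene of either list passed the adjustment over all probes. As single arrays were left out, the median was between -0.32 and -0.01 for the first list and between -0.21 and -0.05 for the Maf list. Counts at that p also changed as single arrays were left out.

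The signalling genes above AP-1 showed no common direction. Of 18 kinases and serum response cofactors 8 were lower and 10 higher on average, with a median of 0.03. Mapk10, a JNK kinase (10.27 and 11.00 against 11.43 and 11.95; 1.05, SE 0.31), was the 1 gene with a limma unadjusted p under 0.05, and Elk4, a partner of serum response factor, differed by -0.37 (SE 0.16). Of 16 MAP kinase phosphatases and feedback inhibitors 10 were lower, with a median of -0.19, and 0 had such a p or passed the adjustment. The nearest were Dusp8, which acts on JNK and p38 (-0.56, SE 0.22), and Spry1 (-0.47, SE 0.25). Among all probes 5.07% were lower and 3.18% higher at that p. With all arrays 0 genes of either list passed limma over all probes. Dropping Ctrl-MI replicate 1 gave 12 of 18 lower kinases and cofactors with a median of -0.10, and 14 of 16 lower phosphatases and inhibitors with a median of -0.09. Dropping Ctrl-MI replicate 2 gave 12 of 18 higher with a median of 0.16. For the phosphatases and inhibitors it gave a median of -0.28.

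Genes with long-described AP-1 sites had lower TTg-MI means for 16 of 16 measured, with a median of -0.27, and 4 had a limma unadjusted p under 0.05. Mmp3, the protease stromelysin 1, stood at 8.05 and 7.33 in Ctrl-MI and at 5.96 and 5.60 in TTg-MI (-1.90, SE 0.28), and Cd44, the hyaluronan receptor, at 10.07 and 9.14 against 7.72 and 8.22 (-1.63, SE 0.35). Both TTg-MI hearts were well below both Ctrl-MI hearts for these genes, which are also made by fibroblasts or leukocytes. For 8 of the 16 the groups separated in this way, as they did for 18.7% of all probes. A lower mean was found for 47.7% of all probes, and 5.07% were lower at that p. Of the 16, 2 were below every array's lower quartile, and several more were below every array's median. These dim genes differed by only -0.26 to -0.07. With all arrays 0 of the 16 passed the adjustment. Dropping Ctrl-MI replicate 2 gave a median of -0.55, with 2 of the 16 higher on average. Dropping Ctrl-MI replicate 1 left 3 higher, and dropping TTg-MI replicate 2 left 1 higher.

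The stress genes listed around Atf3 did not share its difference as a group. Atf4, given above with the other Atf genes and lower in TTg-MI (-0.88), is not in this list. Of 15 integrated and endoplasmic reticulum stress genes 8 were lower and 7 higher, with a median of -0.03 and 2 at a limma unadjusted p under 0.05, both lower. These were Psat1, a serine synthesis enzyme (6.24 and 6.27 against 5.95 and 5.71; -0.43, SE 0.16), and Ppp1r15a, a phosphatase subunit that ends the stress response (6.77 and 6.46 against 6.11 and 6.22; -0.45, SE 0.18). Of 9 targets of small Mafs and Nfe2l2, 7 were lower and 2 higher, with a median of -0.24, 3 lower and 1 higher at such a p. Hmox1, heme oxygenase, differed by -0.79 (SE 0.22) and Srxn1, sulfiredoxin, by -0.47 (SE 0.17). Over all probes 5.07% were lower and 3.18% higher at that p. No gene of either list passed the adjustment. As single arrays were left out, the median of the stress genes was between -0.02 and 0.17 and that of the targets between -0.41 and -0.14. The genes lower at that p then numbered 0 to 2 and 1 to 2.

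**Figure D4:**
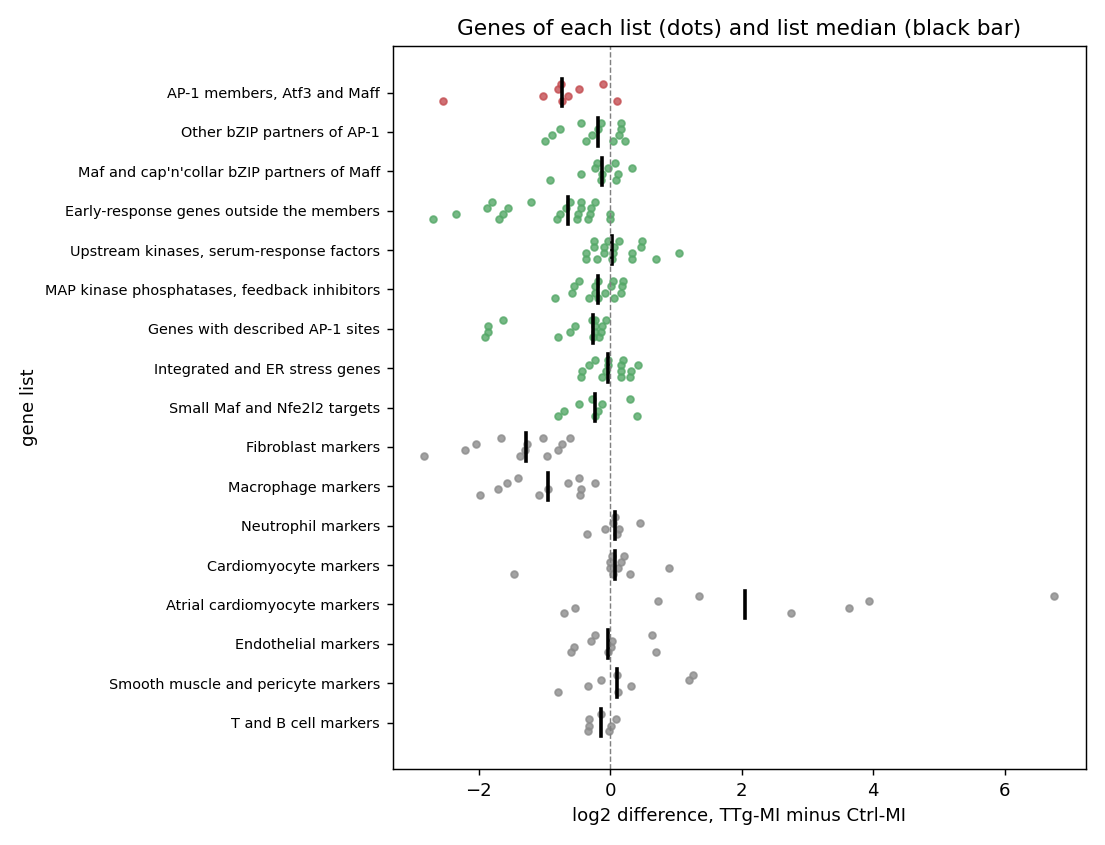
Log2 differences, TTg-MI minus Ctrl-MI (horizontal axis), of the genes of each list (dots) with the list median (black bar), for the 9 genes (red), related lists (green) and cell type markers (grey). The 9 genes (median -0.74) and other early-response genes (-0.65) lie lower than kinases (0.03), and fibroblast (-1.28) and macrophage markers (-0.95) lie lower still.

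Finally, the genes with the most similar profile over the 4 arrays were sought among 10044 other symbols at or above the median level, by the Euclidean distance between log2 profiles centred on their means. Nearest to Fos were Bcr (distance 0.028), P2ry6 (0.035) and Inpp5d (0.048), where the median distance was 1.14. Bcr, for example, stood at 8.13 and 7.07 in Ctrl-MI and at 6.88 and 6.87 in TTg-MI. Nearest to Jun were Pxn (0.045), Dync1h1 (0.063) and Fstl1 (0.074). Nearest to Atf3 were Itgbl1 (0.328), Ccn5 (0.364) and H2ac15 (0.394), at a median distance of 3.04, with Itgbl1 at 11.35 and 8.98 against 8.17 and 7.48. With 4 arrays such likeness is a description of these hearts.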

How the data were processed

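Biotin-labelled cDNA of 4 hearts was read on Clariom S Mouse arrays, from RNA with an integrity number above 7.0 per the labels. The authors deposited 1 table of values, made, per the submitters' processing notes, with Affymetrix Expression Console 1.4 and taken here as log2 values. The base was inferred from their range of 4.22 to 19.93. How they were normalized, the genome build and the version of the annotation are not given in the sources used here. Values were used unchanged and unfiltered. Arrays have no read depth, so precision is set by their number.

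A limma 3.58.1 model (R 4.3.3, lmFit and eBayes, two-sided, group as the single term, 2 residual and 3.56 prior degrees of freedom) was fitted to all 22206 probes. P-values were adjusted over all of them by Benjamini-Hochberg, with 0.05 as threshold. Differences are TTg-MI minus Ctrl-MI. The script was tested on simulated data. The series design calls the hearts of a group independent biological replicates. Symbols came from the platform annotation (19572 probes with 1 symbol, 2634 unnamed here), and each symbol was read from its probe with the highest mean.

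The 9 members and the 16 lists were chosen with earlier results of these data known, so lists are described by counts and medians, without a test. List members that matched no probe were not analysed here. Named genes are the 9 members, the 2 of each list with the smallest p, and the 3 genes nearest to each of Fos, Jun and Atf3. The factor genes Tbx5, Mef2c, Gata4 and Hand2 and the markers Myl4, Nppa, Ngp, Tagln, Pdgfrb and Myh11 were added after their values were seen. Alternative settings were a block for replicate number, quantile scaling, centring on array medians, removal of dim probes, a trended robust prior, a linear model without moderation, an adjusted threshold of 0.1, averaging a gene's probes, and leaving out each array.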

Additional observations from a re-analysis of the deposited data

How the results depend on the processing

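Of 99 values of the 9 members under the alternatives, 92 kept their direction and their side of the adjusted threshold, 3 passed it (Fos, Fosl2 and Atf3, each without Ctrl-MI replicate 2), and 4 changed sign, all with an array left out. Those 4 belong to Fosb (-0.24 to 0.01 over such fits), Fosl1 (-0.14 to 0.35) and Maff (-1.02 to 0.06). The dim-probe filter, the trended robust prior, the replicate block and the model without moderation cannot change a difference in this balanced design. Averaging probes cannot either, as each of the 9 genes has 1 probe. Under these settings the direction was thus fixed in advance, and only the adjusted p could move. The adjusted p of Atf3 ranged from 0.0317 to 1, and that of Jun, Junb and Jund was never under 0.111. The median difference of the 9 genes ranged from -0.92 to -0.25 with single arrays left out, the latter without Ctrl-MI replicate 1, and was -0.68 after quantile normalization. Over all probes, limma called 1 probe, 4 with an intensity trend and robust prior, 0 without moderation (1241 at an unadjusted p under 0.05), and 1 to 332 with single arrays left out, 332 without Ctrl-MI replicate 2. Probes at an unadjusted p under 0.05 numbered 1833, and 862 (without TTg-MI replicate 2) to 3275 (without Ctrl-MI replicate 2) with single arrays left out. The causes were not tested. Fits that leave a group with 1 array take its spread from the other group.

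The replicate number as a block gave 7 called probes, and 6 of the 9 members then had an unadjusted p under 0.05 against 4 without it, while probes at that p rose from 1833 to 2465 over the whole array. Of the 9, 0 passed the adjustment either way. Same-numbered arrays deviated together only weakly (correlation 0.163 across probes), and with 2 numbers the pairing could not be established.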
